A study of Mus musculus with 10 samples.

Results

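The genes described here are 10 immune checkpoint and regulatory T-cell genes in spontaneous mouse lymphomas: Pdcd1, Ctla4, Lag3, Havcr2, Btla, Cd274, Pdcd1lg2, Cd28, Icos and Foxp3. They were chosen by name, as every non-control probe that carries one of these gene names in the scanner files. That gave 13 probes on 22 spots, out of 41174 probes on the array, and all 13 probes passed the filter on dim signal. The 10 genes are among 17775 genes and unnamed transcripts tested. The tumours came from 5 mice heterozygous for the C/EBPβ LIP allele (+/L) and 5 wild-type mice (+/+), with 1 single-colour array (Cy3) per mouse. LIP is the short isoform of the transcription factor C/EBPβ, which lacks most of its activating part. The +/L mice were killed with palpable lymphoma at 18 ± 4.06 months (SD, n = 5, range 11 to 21) and the +/+ mice at 24.9 ± 3.47 months (SD, n = 5, range 20 to 29), so genotype and age moved together (exact two-sided permutation test, p = 0.032). The RNA came from the frozen tumour piece as a whole, and the sources used here do not give the class of each lymphoma.

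Checkpoint receptors are surface proteins that damp the response of an activated lymphocyte. PD-1, made from Pdcd1, binds the ligands PD-L1 and PD-L2, made from Cd274 and Pdcd1lg2, while CTLA-4 competes with the costimulatory receptor CD28 for the same ligands on antigen-presenting cells. FOXP3 is the transcription factor that defines regulatory T cells, which also carry CTLA-4 and ICOS. In a whole tumour, fewer cells of a type and less RNA per cell cannot be told apart.

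The share of non-control spots that were well above background lay between 48.0% and 66.7% per array. Precision is limited by having 5 arrays a group. The arrays of 2 of the 10 mice, +/L mouse 20 and +/+ mouse 11, had sex-linked transcripts that went against the labelled sex. Both mice are labelled male, but their arrays had Xist well above background and 0 of the 3 Y-linked genes Ddx3y, Eif2s3y and Kdm5d well above background, although another Y-linked gene, Uty, was above background on the array of mouse 20. Several of the results below that rest on either mouse are therefore also given without 1 or both of them. The tumour of +/L mouse 20 also stood apart in cell type markers. Its score over 12 T-cell markers was the lowest of the 10 tumours (-1.57, others -0.92 to 1.45) and its score over 8 plasma cell markers the highest (2.07, others -1.58 to 0.33). A score is the mean over a list's genes of the log2 value minus that gene's mean over the tumours.

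Icos, Havcr2 and Cd28 each have 2 probes on the array, at different places in the transcript, and the results below turn on whether such probes moved together. Their first 30 bases are shown (all 60 for the second Havcr2 probe), as the files give them, 5′ to 3′.
Icos probe A_52_P682768: taactgccagtgtttgttttcatctcctgt
Icos probe A_51_P371279: tagaaccaacatgctctcttccaattccta
Havcr2 probe A_51_P109508: ctaacaaaatccattagagataacagctct
Havcr2 probe A_52_P560535: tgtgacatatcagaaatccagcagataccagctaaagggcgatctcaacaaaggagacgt
Cd28 probe A_52_P162967: ctacatggtaagatggaccagaaattgcaa
Cd28 probe A_52_P271511: ttttacattcaactttagcacaattacaat
In mm9, the build of the files, the Icos probes lie at chr1:61057071-61057130 and chr1:61055103-61055162 where the transcript records count bases 3153 and 1192. Those of Havcr2 lie at chr11:46294650-46294709 and chr11:46269921-46269980 at bases 2617 and 291. Those of Cd28 lie at chr1:60829679-60829738 and chr1:60820867-60820926 at bases 3792 and 1172.

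The first question was whether the genes differed between +/L and +/+ tumours. Of the 10 genes, 0 passed in limma at an adjusted p under 0.05, against a background of 0% of all genes tested. Havcr2 alone (1 of 10) had an unadjusted p under 0.05, where the background was 8.58% (1525 genes; 5.44% lower and 3.14% higher in +/L). By probe, 1 of 13 had an unadjusted p under 0.05, against 7.96% of all probes kept. An exact permutation test, adjusted in the same way, called 0 genes as well and had 1592 at an unadjusted p under 0.05. Of the 10 genes, 8 read lower in +/L by the sign of the difference, against 51.9% of all genes, and in 0 of 10 did the groups not overlap, against 1.80% of all genes. The median difference of the 10 genes was -0.33 on the log2 scale and that of all genes -0.022. In 5 of the 10 genes the lowest of all tumours was that of +/L mouse 20.

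**Figure D1:**
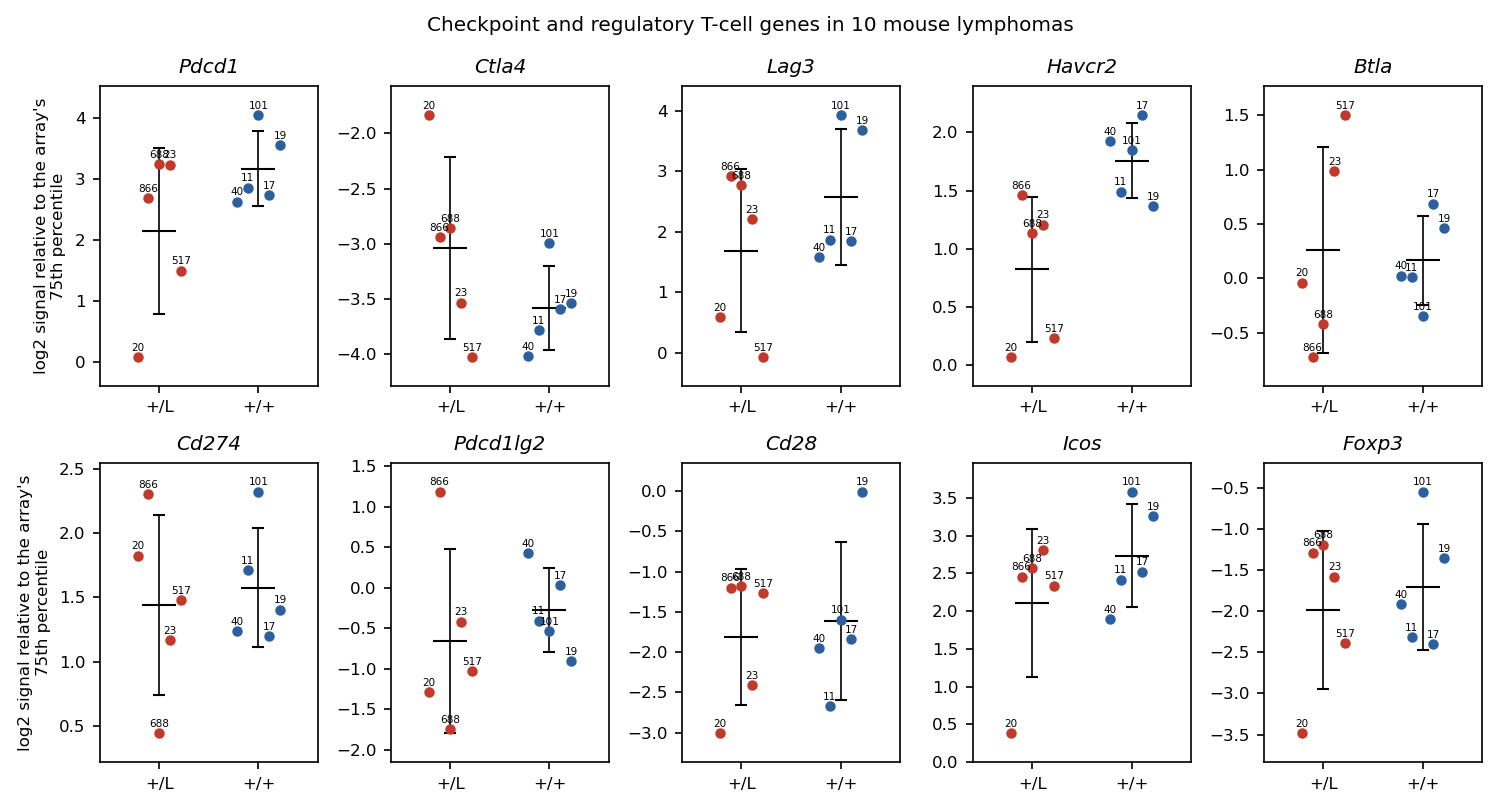
Level of each gene in every tumour, as the log2 signal relative to the array's 75th percentile; points are tumours with their mouse numbers, +/L in red and +/+ in blue, and bars give the mean ± SD (n = 5 each). The groups overlap in all 10 genes, and +/L mouse 20 is the lowest tumour in Pdcd1, Havcr2, Cd28, Icos and Foxp3.

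Levels are log2 signals relative to the 75th percentile of each array, and differences are +/L minus +/+. Values by tumour are given in the order of +/L mice 20, 866, 688, 23 and 517 and then +/+ mice 40, 11, 101, 17 and 19. Adjusted p-values are from limma over all genes, and other p-values beside them are from the exact two-sided permutation test over tumours, whose smallest possible value here is 0.0079. They measure the spread between these tumours only.

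Among the inhibitory receptors, the level of Pdcd1 (chr1:95935064-95935123, mm9) was 0.077, 2.69, 3.25, 3.24 and 1.495 in +/L and 2.63, 2.86, 4.05, 2.74 and 3.56 in +/+ tumours. Mice 20 and 517 were below every +/+ tumour, while the other +/L tumours lay inside the +/+ range. Group means were 2.15 ± 1.36 and 3.17 ± 0.61 (SD, n = 5 each), a difference of -1.02 ± 0.60 (SE; adjusted p = 0.65, exact p = 0.19). The difference rested in part on 1 tumour: it read -0.50 without +/L mouse 20 and -0.58 without mice 20 and 11. The T-cell marker score as a covariate left -0.95.

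Lag3 encodes a receptor for MHC class II that is carried by activated and exhausted T cells. Its level (chr6:124854570-124854866, mm9) was 0.59, 2.92, 2.77, 2.21 and -0.067 in +/L and 1.58, 1.87, 3.93, 1.85 and 3.67 in +/+ tumours. Mice 20 and 517 were again the lowest, and mice 101 and 19 stood above every +/L tumour. The difference was -0.89 ± 0.70 (SE; adjusted p = 0.74, exact p = 0.29). It was -0.46 without +/L mouse 517, -0.49 with the slide as a block and -1.78 with age as a covariate, and within the 3 slides it was -0.034, -0.80 and -0.88.

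Havcr2 encodes TIM-3, which is found on terminally activated T cells and also on dendritic cells and macrophages. Its brighter probe (A_51_P109508) gave 0.070, 1.46, 1.13, 1.21 and 0.23 in +/L and 1.93, 1.49, 1.85, 2.15 and 1.36 in +/+ tumours. The groups met at one point only, since +/L mouse 866 read above +/+ mouse 19; of the +/+ tumours 4 of 5 were above every +/L tumour. Means were 0.82 ± 0.63 and 1.76 ± 0.32 (SD, n = 5 each), and the difference of -0.93 ± 0.31 (SE) had an exact p of 0.016 and an adjusted p of 0.54. The difference was also negative within each slide, at -1.44, -0.77 and -0.15, but the slides hold only 4, 3 and 3 tumours. In the slide of -0.77 mouse 11 was the only +/+ tumour, and in that of -0.15 mouse 866 was the only +/L tumour. The difference was -0.81 without mice 20 and 11 (adjusted p = 0.30), and with age as a covariate it was -1.48 (adjusted p over all alternatives 0.30 to 0.93).

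The other Havcr2 probe (A_52_P560535) did not repeat this reading. It was well above background on 2 of 5 +/L arrays (mice 20 and 866) and on 2 of 5 +/+ arrays (mice 40 and 17), and its difference was 0.044 ± 0.69 (SE; adjusted p over all probes 0.99). In the tumour of +/L mouse 20, where the brighter probe was at its lowest, this probe was at its highest, -2.09 against -6.26 to -4.47 in the other 9. Over the 10 tumours the probes correlated at r = -0.27 (rho = 0.37, permutation p = 0.44 and 0.30), and without mice 20 and 517 at r = 0.81. With the mean of both probes standing for the gene, the Havcr2 difference was -0.45.

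Ctla4, the receptor that competes with CD28, read higher in +/L by sign. Its level (probe A_52_P184548, chr1:60971508-60971567, mm9) was -1.83, -2.94, -2.86, -3.53 and -4.03 in +/L and -4.02, -3.79, -2.99, -3.60 and -3.54 in +/+ tumours. Mouse 20 was the highest and the value of mouse 23 was not well above background. The difference was 0.55 ± 0.38 (SE; adjusted p = 0.71, exact p = 0.21). It was 0.25 without mouse 20 and 0.20 without mice 20 and 11. With normexp and quantile normalization together the difference was 0.091, and it was 0.064 in the authors' deposited value table.

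Btla, a receptor that B cells carry as well as T cells, read -0.041, -0.72, -0.42, 0.99 and 1.503 in +/L and 0.025, 0.011, -0.35, 0.69 and 0.46 in +/+ tumours. The +/L tumours spanned the whole range, with mouse 866 lowest and mouse 517 highest. The difference of 0.094 ± 0.43 (SE; adjusted p = 0.96, exact p = 0.85) was far within the spread, and its sign turned without mouse 23, mouse 517 or mouse 101 and with the slide as a block.

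Of the PD-1 ligands, Cd274, the one that many cell types can make, read 1.82, 2.30, 0.44, 1.17 and 1.48 in +/L and 1.24, 1.71, 2.32, 1.20 and 1.40 in +/+ tumours. The highest tumours were +/L mouse 866 and +/+ mouse 101, and the lowest was +/L mouse 688. The difference was -0.13 ± 0.36 (SE; adjusted p = 0.94, exact p = 0.77, 95% interval -0.93 to 0.67), and it was 0.12 without mouse 688 and 0.054 without mouse 101.

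Pdcd1lg2, the ligand made mostly by antigen-presenting cells, read -1.29, 1.19, -1.75, -0.42 and -1.03 in +/L and 0.43, -0.41, -0.53, 0.028 and -0.91 in +/+ tumours. Mouse 866 was the highest and mouse 688, as for Cd274, the lowest. The difference was -0.38 ± 0.51 (SE; adjusted p = 0.86, exact p = 0.50). It was -0.84 without mouse 866, -0.11 without mouse 688 and -1.32 with age as a covariate, and within the slides it was -1.74, -0.32 and 1.91. Over the 10 tumours Pdcd1 correlated with Cd274 at r = -0.089 (rho = -0.13) and with Pdcd1lg2 at r = 0.19 (rho = -0.12), and the ligands with each other at r = 0.47 (rho = 0.16, adjusted p = 0.41).

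Among the costimulatory receptors, Cd28 was measured with 10 spots of 1 probe, which gives the spread between spots within an array. With 1 array per mouse, technical error between arrays was not measured and is part of the spread between tumours. The SD between the 9 or 10 spots used per array was 0.043 to 0.22 (median 0.090), against an SD of 0.87 between the 10 tumours. The level was -3.01, -1.20, -1.18, -2.41 and -1.27 in +/L and -1.95, -2.67, -1.60, -1.83 and -0.0061 in +/+ tumours. Mouse 19 was the highest and mouse 20 the lowest, with both genotypes spread between them.

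The Cd28 difference was -0.20 ± 0.53 (SE; adjusted p = 0.93, exact p = 0.73). Its sign turned without mouse 20 (0.097), without mouse 19 (0.20) and with the slide as a block (0.037), and with age as a covariate it was -1.09. The other Cd28 probe was well above background on 3 arrays only (+/L mice 866 and 517, +/+ mouse 19) and differed by 0.80 ± 0.72 (SE; adjusted p over all probes 0.81). The Cd28 probes correlated at r = 0.52 over the 10 tumours (rho = 0.42, permutation p = 0.12 and 0.23). Without mice 20 and 19 they had r = 0.39.

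Icos, which T cells gain on activation and follicular helper T cells carry at a high level, read 0.38, 2.46, 2.57, 2.81 and 2.34 in +/L and 1.89, 2.42, 3.59, 2.52 and 3.26 in +/+ tumours. Mouse 20 stood far below the other 9, and mice 101 and 19 were the highest. The difference was -0.62 ± 0.49 (SE; adjusted p = 0.74, exact p = 0.30). It was -0.19 without mouse 20, -0.27 without mice 20 and 11 and -1.02 with age as a covariate. The other Icos probe gave a difference of -0.66 ± 0.46 (SE; adjusted p over all probes 0.74), and the probes correlated at r = 0.98 (rho = 0.94, permutation p = 6.0e-05 and 0.00029, adjusted over 3 probe pairs 0.00018 and 0.00087; r = 0.96 without mice 20 and 19).

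**Figure D2:**
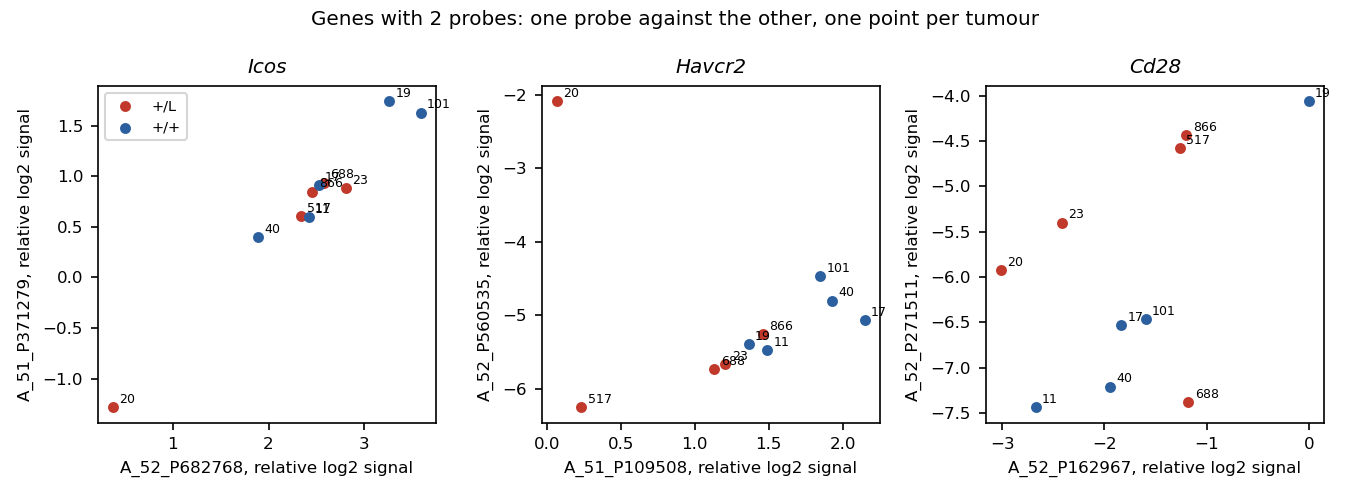
One probe against the other for the 3 genes with 2 probes, both as log2 signal relative to the array's 75th percentile, 1 point per tumour with its mouse number (+/L red, +/+ blue). The Icos probes lie along one line, while +/L mouse 20 stands alone at the top left for Havcr2, with -2.09 on the dim probe and 0.070 on the bright one.

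Foxp3 (chrX:7172158-7172217, mm9) read -3.49, -1.29, -1.19, -1.58 and -2.39 in +/L and -1.92, -2.31, -0.54, -2.40 and -1.36 in +/+ tumours. Mouse 20 was the lowest, and there the probe was not well above background; mouse 101 was the highest. The difference was -0.28 ± 0.51 (SE; adjusted p = 0.90, exact p = 0.64). It was 0.095 without mouse 20, 0.010 without mouse 101, -0.057 without mice 20 and 11, -0.079 with the slide as a block and -0.73 with age as a covariate.

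**Figure D3:**
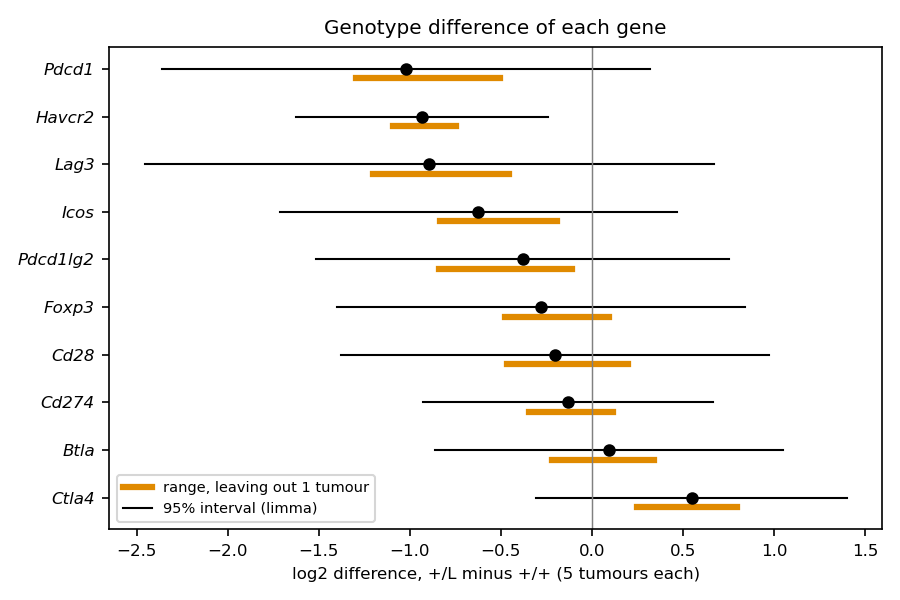
Genotype difference of each gene on the log2 scale (+/L minus +/+, 5 tumours each); points are the differences, black lines the 95% intervals from limma and orange bars the range when each tumour is left out in turn. The interval of Havcr2, -1.63 to -0.24, is the only one of the 10 that does not include 0, and the orange bars of Cd28, Cd274, Btla and Foxp3 cross 0.

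The other question was which of these genes moved together across tumours, whatever the genotype. A block of 4 genes did: Pdcd1, Icos, Foxp3 and Lag3. The block is defined by correlation and not by cell type. Of the 45 pairs among the 10 genes, 5 had an adjusted permutation p under 0.05, and all 5 were pairs of these 4. The 4 genes were grouped by these same calls, and the share of called pairs over all genes was not computed. Pdcd1 and Icos correlated at r = 0.92 (rho = 0.94, permutation p = 0.00075 and adjusted p = 0.017 for r), Pdcd1 and Foxp3 at r = 0.89 (rho = 0.76, adjusted p = 0.017) and Pdcd1 and Lag3 at r = 0.84 (rho = 0.87, adjusted p = 0.020). Without mice 20 and 517, the tumours farthest from the median of Pdcd1, these values of r were 0.93, 0.77 and 0.83.

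Within the block, Lag3 and Foxp3 correlated at r = 0.85 (rho = 0.87, adjusted p = 0.020; r = 0.88 without mice 517 and 101). Icos and Foxp3 correlated at r = 0.85 (rho = 0.72, adjusted p = 0.022), but at r = 0.44 without mice 20 and 101, so that relation rested on those tumours. The remaining pair, Lag3 and Icos, had r = 0.73 (adjusted p = 0.096) and rho = 0.85 (adjusted p = 0.032).

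Over 17 alternatives, among them Spearman's rho, the correlations of the 5 called pairs lay between 0.69 and 0.98, and all 5 kept their sign in each. The omission of the 2 tumours farthest from the median, given above, is not among these alternatives. There Icos with Foxp3 had r = 0.44. With Spearman's rho, 4 pairs of the 4 genes were called. Pdcd1 with Foxp3 (adjusted permutation p = 0.115) and Icos with Foxp3 (adjusted permutation p = 0.145) lost their call by rank, and Lag3 with Icos was called. The number of called pairs was 1 without +/L mouse 20, 0 without +/+ mouse 101, 2 without +/+ mouse 19 and 0 without mice 20 and 11, each with fewer tumours. Among the residuals on the T-cell marker score, 2 pairs were called, Pdcd1 with Icos (adjusted p = 0.036) and Pdcd1 with Foxp3 (adjusted p = 0.049). With each genotype centred on its own mean, 5 pairs were called. The slides hold 4, 3 and 3 tumours and each genotype 5, too few for a correlation within them; centred on each slide's mean, 6 pairs were called, of which 4 were among the 4 genes. Lag3 with Foxp3 lost its call there (r = 0.75, adjusted p = 0.067), and Pdcd1 with Havcr2 (r = 0.80, adjusted p = 0.049) and Cd274 with Cd28 (r = -0.81, adjusted p = 0.044) were called.

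**Figure D4:**
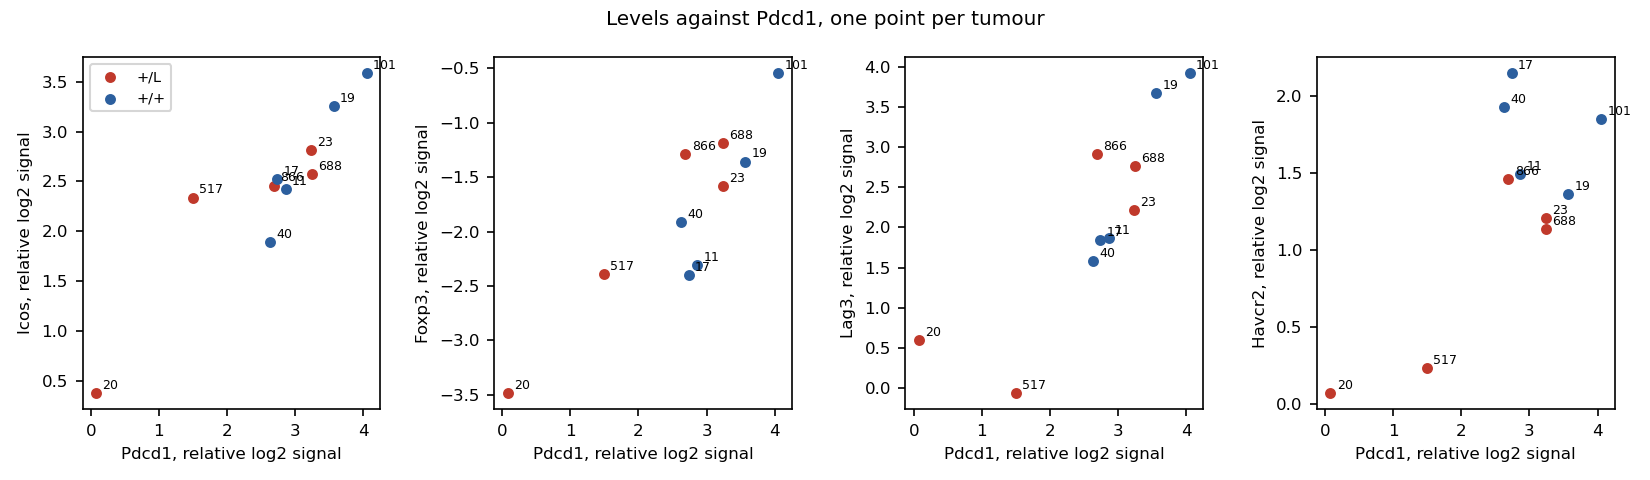
Icos, Foxp3, Lag3 and Havcr2 against Pdcd1, all as log2 signal relative to the array's 75th percentile, 1 point per tumour with its mouse number (+/L red, +/+ blue). In the first 3 panels the tumours lie along a rising band from mouse 20 or 517 to mouse 101, with r = 0.92, 0.89 and 0.84; for Havcr2 mice 20 and 517 lie apart from the other 8.

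Of the 40 pairs not called, the smallest adjusted p was 0.096. Havcr2 correlated with Pdcd1 at r = 0.75 (adjusted p = 0.096), but with rho = 0.27, and without mice 20 and 517 at r = -0.20. Ctla4 had negative values with Icos (r = -0.47), Pdcd1 (r = -0.40) and Foxp3 (r = -0.17) over all 10 tumours, where rho was 0.20, 0.18 and 0.32. Without +/L mouse 20 the values of r were 0.51, 0.60 and 0.80, so the sign of r in these pairs turned with 1 tumour. Ctla4 with Lag3 had r = 0.089 over all 10 tumours and 0.74 without +/L mouse 20. Btla ran against Ctla4 (r = -0.54) and Lag3 (r = -0.53), and its pairs were not called.

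**Figure D5:**
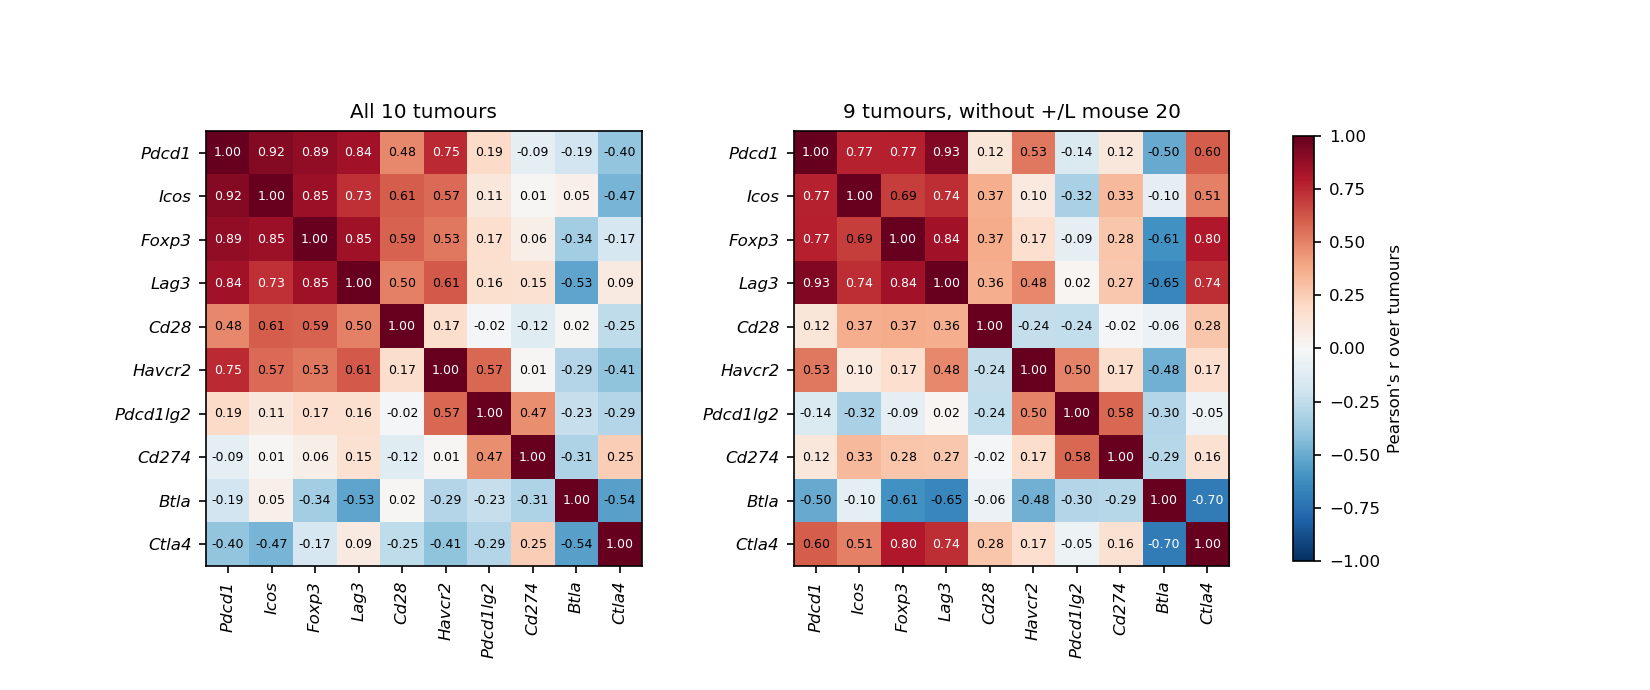
Pearson's r for each pair of the 10 genes over all 10 tumours (left) and over 9 tumours without +/L mouse 20 (right); red is positive and blue negative, with the value in each cell. Pdcd1, Icos, Foxp3 and Lag3 form the red block at the top left in both panels, while the values of Ctla4 with those 4 genes change from -0.47 to 0.09 on the left to 0.51 to 0.80 on the right.

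Cell type markers were set beside the genes, as 50 relations between the 10 genes and 5 scores. Cd28 followed the T-cell markers (r = 0.94, rho = 0.95, permutation p = 6.0e-05 and adjusted p = 0.0030 for r; r = 0.89 without mice 20 and 19), and it was the only relation called by Pearson's r over the 10 tumours. Without mice 20 and 11 it was not called (r = 0.89, adjusted p = 0.091), and 0 of the 50 relations were. Foxp3 was related to the T-cell score at r = 0.74 (adjusted p = 0.14), Icos at r = 0.64, Pdcd1 at r = 0.58 and Lag3 at r = 0.57 (adjusted p = 0.24 for Icos and Pdcd1). Havcr2 had r = 0.21 with the T-cell, 0.19 with the macrophage and 0.43 with the dendritic cell score. The macrophage score mixes markers of opposite genotype difference, from C1qb at -1.58 to Cd163 at 4.41. Cd163 was well above background on 3 arrays only.

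Foxp3 ran against the plasma cell score, at r = -0.81 (adjusted p = 0.10) and rho = -0.93 (adjusted p = 0.010; r = -0.78 without mice 20 and 101). Btla ran against the macrophage score, whose markers are mixed as stated above, at r = -0.78 (rho = -0.72, adjusted p = 0.10 for r). The T-cell score itself spanned -1.57 to 0.92 in +/L and -0.92 to 1.45 in +/+ tumours (exact permutation p = 0.87), and all 12 of its markers were measured. Among 20 relations of the 10 genes with the share of spots above background and with the array's 75th percentile, the smallest adjusted p was 0.86.

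For each gene, the 3 most similar of 11427 other genes were listed by Pearson's r over the 10 tumours, as a description without a test. Tnfrsf4, which encodes the costimulatory receptor OX40, was among the 3 for Pdcd1 (r = 0.97), Icos (r = 0.95) and Foxp3 (r = 0.93). For Pdcd1 the others were Atcay (r = 0.97) and Il2rg, the common cytokine receptor chain (r = 0.95), for Icos the transcription factors Egr2 (r = 0.95) and Max (r = 0.95), and for Foxp3 the prostaglandin receptor Ptger2 (r = 0.95) and the T-cell receptor kinase Zap70 (r = 0.92). Lag3 was most like Rxra, a nuclear receptor (r = 0.98), then Prxl2b (r = 0.93) and Tmem86a (r = 0.92). Without +/L mouse 20, r for Pdcd1 was 0.94 (Atcay), 0.90 (Tnfrsf4) and 0.87 (Il2rg). For Icos it was then 0.85 (Tnfrsf4), 0.86 (Egr2) and 0.87 (Max), and for Foxp3 0.90 (Ptger2), 0.89 (Tnfrsf4) and 0.85 (Zap70). For Lag3 it was 0.97 (Rxra), 0.91 (Prxl2b) and 0.91 (Tmem86a).

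Havcr2 was most like Amz1 (r = 0.97), Asb2 (r = 0.95) and Itgax, which encodes the dendritic cell and macrophage integrin CD11c (r = 0.95, rho = 0.99, and 0.92 without mouse 20). Itgax itself differed by -1.74 between the genotypes (limma adjusted p = 0.54). Ctla4 was most like Tcte3 (r = 0.95), Rps6kl1 (r = 0.94) and Fuom (r = 0.93), at 0.88, 0.93 and 0.84 without mouse 20. Cd28 was most like Fam189b, Ipcef1 and Mboat1 (each r = 0.96) and Btla like Rabep2 (r = 0.91), Pbxip1 (r = 0.90) and Chd2 (r = 0.89). The ligands had other neighbours, Ido2 (r = 0.88), Il15ra (r = 0.84) and Lrp12 (r = 0.84) for Cd274, and Hsd3b7 (r = 0.94), Glb1l (r = 0.91) and Nipa2 (r = 0.90) for Pdcd1lg2.

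Promoters are shown for Pdcd1 and Foxp3, the co-varying pair for which the RefSeq table (GRCm38.p6) holds an entry, as 300 bases around the start, 5′ to 3′ on the gene's strand. Capitals mark matches on either strand to 3 motifs: the NFAT core GGAAA, the AP-1 motif TGANTCA and the C/EBP motif TTNNGNAA.
Pdcd1, chr1:94052504-94052803, minus strand: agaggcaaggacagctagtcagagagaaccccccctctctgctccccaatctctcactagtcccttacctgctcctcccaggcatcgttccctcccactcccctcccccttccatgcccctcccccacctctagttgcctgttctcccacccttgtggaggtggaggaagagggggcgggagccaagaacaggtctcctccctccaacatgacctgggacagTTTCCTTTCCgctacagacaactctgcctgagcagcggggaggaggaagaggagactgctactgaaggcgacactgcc
Foxp3, chrX:7579426-7579725, plus strand: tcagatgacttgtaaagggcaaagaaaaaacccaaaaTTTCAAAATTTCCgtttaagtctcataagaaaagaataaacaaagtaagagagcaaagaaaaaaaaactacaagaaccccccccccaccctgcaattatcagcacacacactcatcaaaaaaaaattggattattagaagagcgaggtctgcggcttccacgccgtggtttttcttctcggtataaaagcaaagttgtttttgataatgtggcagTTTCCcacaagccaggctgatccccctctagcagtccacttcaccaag
Pdcd1 held 2 NFAT cores, side by side, with 0 AP-1 and 0 C/EBP matches. The Foxp3 promoter shown held 2 NFAT cores, 1 of them directly after its 1 C/EBP match, and 0 AP-1 matches. Another Foxp3 entry, chrX:7580233-7580532, is not shown. It held 1 NFAT core and 1 C/EBP match, which did not adjoin, and 0 AP-1 matches. Of the 8 promoters listed for 7 of the 10 genes, 6 held an NFAT core, 1 an AP-1 motif and 3 a C/EBP motif, where 61.3%, 7.81% and 40.7% of all 32851 promoters did. A match describes the letters and is not a binding site.

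Pathways around these receptors were described with 8 lists of related genes. In every list 0 genes passed in limma at adjusted p under 0.05, the share of all genes that read lower in +/L was 51.9%, and the named genes are those of lowest unadjusted p. Of 12 other inhibitory receptors tested, 8 read lower in +/L and 4 higher, with a median difference of -0.35. Klrg1, a receptor of effector T and NK cells, differed by 0.75 (exact p = 0.063, adjusted p = 0.57; 0.42 in the authors' deposited value table and 0.46 with age as a covariate) and Cd72, a B-cell inhibitory receptor, by -1.15 (adjusted p = 0.59). Of 9 costimulatory receptors, 5 read higher and 4 lower (median 0.061), with Tnfrsf4 at -0.96 (adjusted p = 0.70) and Slamf6 at 0.31 (adjusted p = 0.71). Tnfrsf4 was at -0.37 without mouse 20, -0.62 without mouse 101, -0.49 without mice 20 and 11 and -1.65 with age as a covariate, and Slamf6 at 0.032 with the mean over its probes and 0.49 with age.

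Of 15 ligands of such receptors, 11 read lower and 4 higher (median -0.045). Tnfsf4, the ligand of OX40, differed by -1.01 ± 0.29 (SE; exact p = 0.016, adjusted p = 0.54) and was well above background on 8 arrays, and Lgals9, a lectin that binds TIM-3, differed by -0.42 (adjusted p = 0.64) and, when age was fitted too, by -0.80. Tnfsf4 differed by -0.43 with normexp and quantile normalization and by -0.28 in the authors' deposited value table. Of 15 other regulatory T-cell genes, 11 read lower and 4 higher (median -0.13). Tgfb1, the suppressive cytokine, differed by -0.84 ± 0.26 (SE; exact p = 0.024, adjusted p = 0.54) and Ikzf4 by -0.58 (adjusted p = 0.59; -0.30 with normexp and quantile normalization and -0.19 in the authors' deposited value table).

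Of 11 transcription factors of T-cell exhaustion and activation, 10 read lower and 1 higher (median -0.62). Maf differed by -1.23 ± 0.37 (SE; exact p = 0.016, adjusted p = 0.54) and Nfatc1, an NFAT factor, by -0.86 (exact p = 0.048, adjusted p = 0.57). With the mean over a gene's kept probes, Maf differed by -0.41 and Nfatc1 by -0.55, and with age as a covariate Maf differed by -0.64. All 6 follicular helper T-cell genes tested read lower (median -0.85), with Ascl2 at -0.82 (exact p = 0.016, adjusted p = 0.54) and the chemokine Cxcl13 at -1.40 (adjusted p = 0.62). Ascl2 was at -0.38 with normexp and quantile normalization, -0.26 in the authors' deposited value table and -0.43 with age as a covariate, and Cxcl13 at -0.84 without mouse 517 and -0.88 with age.

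Of 13 genes of receptor-proximal signalling, 11 read lower and 2 higher (median -0.37). Ptpn6, the phosphatase SHP-1 that acts behind inhibitory receptors, read 4.66 to 5.17 in +/L and 5.45 to 6.46 in +/+ tumours. Its groups did not overlap on this probe, which held for 1.80% of all genes. Its difference was -0.91 ± 0.25 (SE; exact p = 0.0079, adjusted p = 0.54), and Inpp5d, the phosphatase SHIP-1, differed by -0.59 (exact p = 0.048, adjusted p = 0.57). With the mean over its kept probes Ptpn6 differed by -0.50. Inpp5d differed by -0.35 with normexp and quantile normalization, -0.32 in the authors' deposited value table and -0.30 with age as a covariate.

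Of 10 genes for interferon gamma and its targets, 9 read lower and 1 higher (median -0.54). Irf1, an interferon-induced transcription factor, differed by -0.66 (exact p = 0.048, limma adjusted p = 0.57). It differed by -0.39 with normexp and quantile normalization, -0.29 in the authors' deposited value table and -1.02 with age as a covariate.

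Markers of other cell types are given beside these lists; 0 of them passed in limma at an adjusted p under 0.05. All 8 neutrophil markers read higher in +/L (median 2.19), and their score was -1.01 to 2.78 in +/L and -2.81 to 1.33 in +/+ tumours, a difference of 2.01 (exact permutation p = 0.10). Of 9 macrophage markers, 6 read lower in +/L and 3 higher (median -0.96, range -1.58 to 4.41), while the score differed by 0.22, so median and score differ in sign. Of 8 endothelial and stromal markers, 6 read lower and 2 higher (median -0.11), and the smooth muscle genes Acta2 (-1.44, limma adjusted p = 0.53) and Tagln (-1.12, limma adjusted p = 0.54), named after their values were seen, read lower. Among T-cell, B-cell, plasma cell, dendritic cell and NK-cell markers, 8 of 12, 8 of 10, 5 of 8, 6 of 10 and 2 of 9 read lower in +/L. The part of these cell types in the differences of the receptors was not tested.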

How the data were processed

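RNA of 10 tumours was measured on single-colour Agilent arrays. The deposited intensity of each spot is the authors' output of Feature Extraction (version 10.5.1.1), and the build is mm9, both per the file headers. The deposited value table holds log2 values, used as an alternative, for which the sources used here give no background method. A level is the log2 processed signal after subtracting its 75th percentile over non-control spots of the array. Flagged spots were left out, spots of a probe averaged, and 26410 probes kept that were above background on 3 or more of 10 arrays. The probe of highest mean stood for a gene (17775 genes, 14797 of them with a current symbol matched through RefSeq). Genotypes were compared with limma 3.58.1 in R 4.3.3, with Benjamini-Hochberg adjustment over all genes, and with exact permutation tests. Correlations used 100000 permutations and were adjusted over 45 pairs, 50 score relations and 20 array measures. Slides were taken from the headers, since the labels name another slide for mice 866 and 17. The limma procedure was tested on simulated data. The genes and lists were chosen with earlier results of these data known. Some lists share genes (Cd2, Prdm1, Irf4, Eomes). Named genes were the 10 members, the 3 most similar genes of each, and in each pathway list the genes past the threshold or else the 2 of lowest p, of which 1 is not reported here; Itgax, a dendritic cell marker, and the sex-linked genes are named besides.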

Additional observations from a re-analysis of the deposited data

Results flagged for a closer look

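Single tumours were compared with the other 4 of their genotype for each of the 13 probes, and 4 of these 26 groups held a tumour far from the others. Chance gives about 1 in 20 for independent groups, which these are not, so the count cannot be set against that share. The tumour of +/L mouse 20 was the far one in 3 of the 4 groups, among them both Icos probes, which correlated at r = 0.98. On the Icos probe A_52_P682768 it read 0.38, with the other +/L tumours at 2.34 to 2.81, and on the Icos probe A_51_P371279 it read -1.29, with the others at 0.60 to 0.94. On the dim Havcr2 probe A_52_P560535 it read -2.09, with the others at -6.26 to -5.26. In the +/+ group, mouse 19 read -4.06 on the dim Cd28 probe A_52_P271511, with the others at -7.44 to -6.47 and none of those well above background.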

How the results depend on the processing

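In all alternatives tried 0 of the 10 genes passed at an adjusted p under 0.05. The count over all genes, 0 as reported, was 1 with normexp and quantile normalization, 1 in the authors' deposited value table, and 0 to 3 when each tumour was left out (3 without +/L mouse 517). Of 593 alternative values for the genotype differences of the 10 genes and 16 list genes, 13 turned sign. Cd28 read 0.30 with the mean over probes, 0.037 with the slide as a block, 0.097 without mouse 20 and 0.20 without mouse 19. Btla read -0.12 with the slide as a block, -0.0040 with labelled sex as a covariate, and -0.088, -0.22 and -0.036 without mice 23, 517 and 101. Foxp3 read 0.095 and 0.010 without mice 20 and 101, and Cd274 read 0.12 and 0.054 without mice 688 and 101. Leaving out each tumour in turn gave -0.22 to 0.34 for Btla, -0.35 to 0.12 for Cd274, -0.47 to 0.20 for Cd28 and -0.48 to 0.095 for Foxp3. The cause was not tested. Of the gene pairs, 5 as reported, 4 were called with Spearman's rho and 2 among residuals on the T-cell score. When each tumour was left out 0 to 6 pairs were called, and without mice 20 and 11 there were 0. Of the relations with cell type scores, 1 as reported, 2 were called when centred on genotype, 2 with Spearman's rho, 1 to 2 when each tumour was left out (2 without +/+ mouse 101) and 0 without mice 20 and 11. Leaving out mice 20 and 11 from the correlations, and centring them on slides, were chosen after seeing the data. No paired analysis was possible because the mice carry separate numbers. Signal over background limits Ctla4, Foxp3 and the second probes of Havcr2 and Cd28: the lowest signal well above background on an array lay between -5.92 and -3.67.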
